A study of Mus musculus with 9 samples.

Results

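B cell genes were followed in colonic mucosa of mice with and without gastrin, as 9 named marker genes of the B lymphocyte: Cd79a, Cd79b, Ms4a1, Cr2, Fcmr, Fcer2a, Pax5, Cd22 and Blk. They were taken by name, with every probe set annotated to them, which gave 13 of the 34945 probe sets that the platform annotation pairs with 1 gene and 9 of 18193 genes. Expression had been measured on 9 Affymetrix mouse arrays of colonic mucosa from male C57BL/6 mice aged 6 weeks. Each of 3 genotypes had 3 arrays: WT, wild-type mice; Gas-/-, which lack gastrin; and hGas, transgenic mice, which the title of the study ties to progastrin, the precursor made from the gastrin gene. The promoter that drives the transgene, and whether each array was a separate mouse or a pool, are not given in the sources used here, so a p-value here reflects only how these samples vary, which may be technical.

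B lymphocytes recognise antigen through a membrane immunoglobulin that signals by way of the paired chains Cd79a and Cd79b. Other surface proteins raise or lower that signal, among them Cr2, which binds complement fragments, and Cd22, which inhibits. In the colon, B cells gather in isolated lymphoid follicles and patches, from which antibody-secreting plasma cells arise. Plasma cells lose much of this surface equipment.

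All values are log2 expression values as deposited, and 4 on that scale was taken as the level below which a probe set is near background. The targeted gene, Gast, was near background in every group (1.96 ± 0.02 in WT, 2.08 ± 0.08 in Gas-/- and 1.95 ± 0.01 in hGas, SD, n = 3), so its probe set checks neither genotype. Array medians lay between 4.13 and 4.16. The Gas-/- arrays stood apart on the first principal component (25.8 to 30.1 against -19.2 to -8.38 for the other 6 arrays), and WT replicate 3 lay farthest out on the second (24.95). Epcam, an epithelial adhesion gene, stood at 13.7 to 14.0 in the 3 genotypes, as a tissue with epithelium would give. Smooth muscle genes were high too, with group means of 13.8 to 13.9 for Acta2 and 13.1 to 13.2 for Myh11. Epcam therefore does not show that only mucosa was sampled. Of the 9 B cell genes 6 were measured above background in at least 3 arrays and could be tested, and Fcer2a, Pax5 and Blk could not.

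Promoter sequence was available for 6 of the 9 genes in a RefSeq table of build GRCm38.p6, which served for sequence only, since the files name no build. Cd79b, Ms4a1 and Blk had no entry in the RefSeq table used. The windows, 250 bases before the annotated start to 50 after it, were searched on both strands for letters bound by factors of the B lineage. These were the octamer ATGCAAAT, the EBF1 letters CCCNNGGG and a longer form, which contains them with a further fixed base at each end, and the PU.1 letters GAGGAA. The 250 bases before the start are shown for the 3 genes whose window held a match, with the matching letters in capitals.
Cd79a, chr7:24897247-24897496, plus strand: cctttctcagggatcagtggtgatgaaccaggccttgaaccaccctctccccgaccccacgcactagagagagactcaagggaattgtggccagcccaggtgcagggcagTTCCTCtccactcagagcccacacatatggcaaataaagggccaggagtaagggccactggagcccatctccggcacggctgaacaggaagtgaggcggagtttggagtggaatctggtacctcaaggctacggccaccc
Fcmr, chr1:130865527-130865776, plus strand: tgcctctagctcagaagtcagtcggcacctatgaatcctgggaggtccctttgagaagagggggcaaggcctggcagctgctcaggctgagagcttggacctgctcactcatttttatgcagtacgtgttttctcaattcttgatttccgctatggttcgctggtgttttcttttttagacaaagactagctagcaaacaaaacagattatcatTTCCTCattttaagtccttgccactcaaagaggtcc
Cd22, chr7:30879029-30879278, minus strand: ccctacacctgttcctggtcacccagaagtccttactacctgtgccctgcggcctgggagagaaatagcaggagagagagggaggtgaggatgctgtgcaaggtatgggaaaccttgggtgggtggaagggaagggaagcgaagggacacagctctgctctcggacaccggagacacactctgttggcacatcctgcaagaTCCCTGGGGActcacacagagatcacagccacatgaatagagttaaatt
The PU.1 letters begin 140 bases before the start in Cd79a and 36 before it in Fcmr, both on the reverse strand, and they occur in 28.3% of all 32851 windows of this length. The long EBF1 letters begin 49 bases before the start of Cd22 and occur in 0.904% of all windows, the short ones in 13.7%. The octamer was in none of the 8 windows of these genes and in 1.74% of all windows. A match describes letters in a window and is not evidence of a bound site.

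Of the 9 B cell genes, the 6 that could be tested were all lower in hGas than in Gas-/- mucosa. With 1 probe set a gene, they fell from 1.61-fold for Cd22 to 7.59-fold for Cd79a. Ms4a1 fell 15.7-fold on its other probe set, which was near background in hGas, so that fold depends on the background level. Against WT, Fcmr, Cd79a and Cd79b fell in hGas, and Cd79a, Ms4a1 and Cr2 rose in Gas-/-. Cr2 entered the fit through Gas-/-, where it is high, so its calls there are no support; without it the counts are 5 of 5 and 2 of 5. The genes were tested by limma in 1 fit over all 9 arrays and 11273 genes, with Benjamini-Hochberg adjustment, and called at an adjusted p under 0.05. In that fit 8.51% of genes were called lower in hGas than in Gas-/-, 0.523% lower in hGas than in WT and 6.64% higher in Gas-/- than in WT, with 8.05%, 0.639% and 5.48% called in the opposite directions. The 59 genes lower in hGas than in WT became 13 to 44 when 1 array was left out, and the 72 higher became 13 to 60. The 3 comparisons share arrays, so a gene high in 1 genotype enters more than 1 of them. In bulk mucosa, fewer B cells and less RNA per B cell cannot be told apart.

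**Figure D1:**
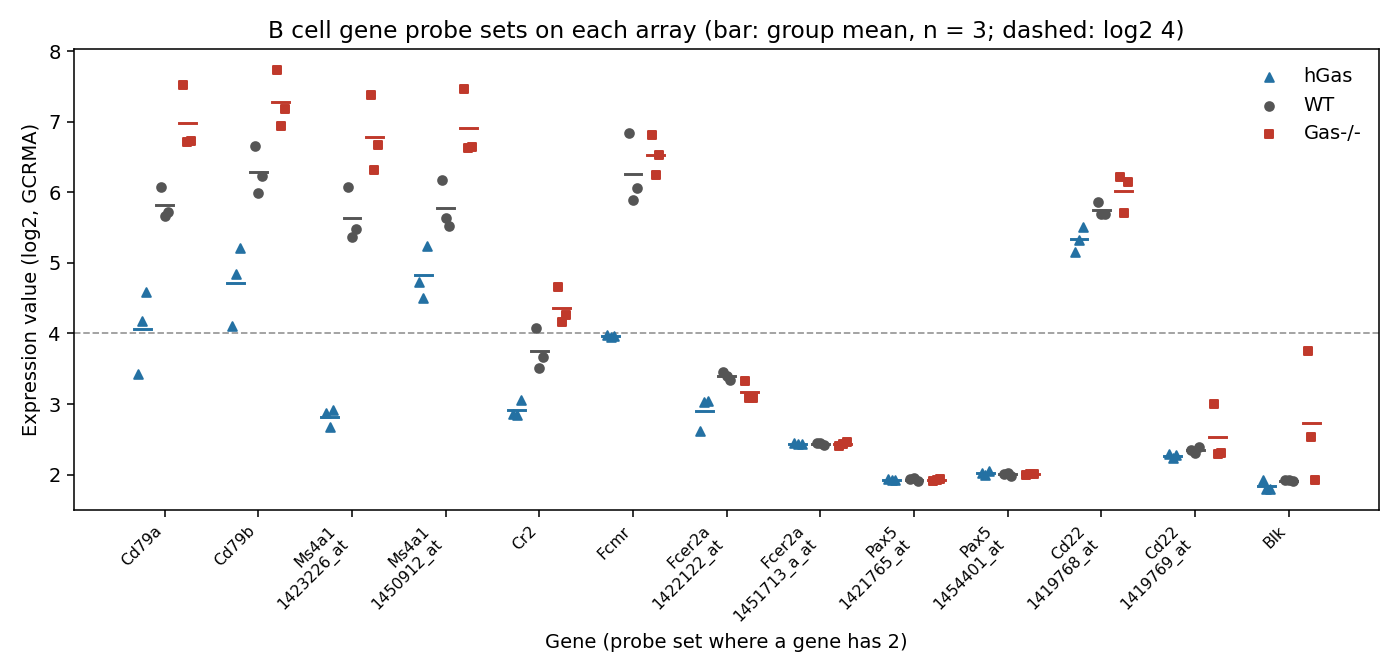
Log2 expression value (vertical axis) of all 13 probe sets of the 9 B cell genes (horizontal axis) on each of the 9 arrays, with bars at the mean of each genotype (n = 3) and a dashed line at log2 4. Cd79a, Cd79b, both Ms4a1 probe sets and Cr2 step up from hGas to WT to Gas-/- without overlap, while Pax5 and the second Fcer2a probe set stay flat near 2.

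The signalling chains of the antigen receptor moved in step with each other. Cd79a stood at 6.08, 5.66 and 5.72 on the 3 WT arrays, at 7.52, 6.71 and 6.72 in Gas-/- and at 3.43, 4.17 and 4.59 in hGas. All 3 genotypes were separate, with the hGas arrays lowest and the Gas-/- arrays highest. The group means were 5.82 ± 0.23, 6.99 ± 0.47 and 4.06 ± 0.59 (SD, n = 3). Cd79a was 3.38-fold lower in hGas than in WT (log2 -1.76, SE 0.30, limma adjusted p = 0.0292) and 2.24-fold higher in Gas-/- (log2 1.17, SE 0.30, adjusted p = 0.0335). From Gas-/- to hGas the difference was 7.59-fold (log2 -2.92, SE 0.30, adjusted p = 1.7e-04).

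Cd79b, the other chain, stood at 6.66, 5.99 and 6.23 in WT, at 7.73, 6.94 and 7.18 in Gas-/- and at 4.10, 4.85 and 5.21 in hGas. Again no array of 1 genotype overlapped another. It fell 2.98-fold in hGas against WT (log2 -1.58, SE 0.30, limma adjusted p = 0.042) and was 5.91-fold lower in hGas than in Gas-/- (log2 -2.56, adjusted p = 3.6e-04). Its difference of 0.99 between Gas-/- and WT did not pass the test (SE 0.30, 95% interval 0.32 to 1.66, adjusted p = 0.0621).

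Ms4a1 encodes Cd20, a membrane protein of B cells from the precursor stage until they become plasma cells, and has 2 probe sets that differed in how far it fell. On probe set 1450912_at, which has the higher mean and represents the gene in the fit, it stood at 6.18, 5.64 and 5.52 in WT, at 7.46, 6.63 and 6.65 in Gas-/- and at 4.73, 4.50 and 5.24 in hGas. On probe set 1423226_at it stood at 6.07, 5.37 and 5.48 in WT and at 7.38, 6.32 and 6.67 in Gas-/-, close to the first probe set, but at 2.87, 2.67 and 2.91 in hGas, near background. Both probe sets separated the 3 genotypes without overlap.

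The rise in Gas-/- against WT was alike on both Ms4a1 probe sets, 2.19-fold on 1450912_at (log2 1.13, SE 0.27, limma adjusted p = 0.0245) and 2.22-fold on 1423226_at (log2 1.15, SE 0.26, adjusted p = 0.0217 over 19822 probe sets). Against WT, the hGas value was 1.94-fold lower on the first, which did not pass the test (log2 -0.96, SE 0.27, adjusted p = 0.138). On 1423226_at Ms4a1 fell 7.07-fold (log2 -2.82, SE 0.26, adjusted p = 0.00277), a fold that depends on the background level. The gap between the probe sets (1423226_at minus 1450912_at) was -0.14 ± 0.12 in WT, -0.12 ± 0.17 in Gas-/- and -2.00 ± 0.28 in hGas (SD, n = 3). Since 1423226_at was near background in hGas, the gap there depends on that level, and no test of it is given. From Gas-/- to hGas, Ms4a1 fell 4.25-fold on the first probe set (adjusted p = 7.4e-04) and 15.7-fold on the second (adjusted p = 1.0e-05). The larger fold again depends on the background level.

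Cr2, the complement receptor that lowers the threshold for B cell activation, was a dim gene. It stood at 4.08, 3.51 and 3.67 in WT, at 4.66, 4.17 and 4.27 in Gas-/- and at 2.86, 2.85 and 3.05 in hGas, and the 3 genotypes did not overlap. Only 4 arrays reached log2 4, all 3 of Gas-/- and WT replicate 1, so Cr2 entered the fit through the genotype in which it was high and its differences from Gas-/- are given as a description. It rose 1.53-fold in Gas-/- against WT (log2 0.61, SE 0.17, limma adjusted p = 0.0473) and was 2.72-fold lower in hGas than in Gas-/- (log2 -1.44, SE 0.17, adjusted p = 4.2e-04). The difference of -0.83 between hGas and WT did not pass (SE 0.17, adjusted p = 0.0596).

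Fcmr, the receptor for IgM, was the gene with the lowest adjusted p of the 6 in hGas against WT and had no call in Gas-/-. It stood at 6.84, 5.89 and 6.06 in WT and at 6.81, 6.24 and 6.53 in Gas-/-, ranges that overlap, and at 3.98, 3.95 and 3.96 in hGas. The hGas arrays lay just under log2 4 with almost no spread (3.96 ± 0.01, SD, n = 3), against 6.26 ± 0.51 in WT. Fcmr fell 4.92-fold against WT (log2 -2.30, SE 0.23, limma adjusted p = 0.00256) and 5.91-fold against Gas-/- (log2 -2.56, SE 0.23, adjusted p = 6.8e-05), and both folds depend on the background level. The difference between Gas-/- and WT was 0.26 (SE 0.23, 95% interval -0.25 to 0.77, adjusted p = 0.515), which spans both no difference and a rise of 0.77.

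Cd22, the inhibitory lectin that binds sialic acid, moved least of the genes tested in both comparisons with hGas. Probe set 1419768_at gave 5.86, 5.69 and 5.69 in WT, 6.21, 5.71 and 6.14 in Gas-/- and 5.15, 5.33 and 5.51 in hGas. The hGas arrays lay below all others, while 1 Gas-/- array fell within the WT range. Cd22 was 1.61-fold lower in hGas than in Gas-/- (log2 -0.69, SE 0.14, limma adjusted p = 0.0107). Its differences from WT, 0.27 in Gas-/- (95% interval -0.05 to 0.60, adjusted p = 0.27) and -0.42 in hGas (95% interval -0.74 to -0.09, adjusted p = 0.223), did not pass. A second Cd22 probe set, 1419769_at, was near background on all arrays (2.23 to 3.00), with its highest value on Gas-/- replicate 1.

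The 3 remaining genes stayed near background on every array. Fcer2a, the low affinity IgE receptor, was at 3.46, 3.40 and 3.34 in WT, at 3.33, 3.08 and 3.08 in Gas-/- and at 2.62, 3.03 and 3.04 in hGas on probe set 1422122_at, and between 2.40 and 2.45 on 1451713_a_at. Unlike the genes above, its WT arrays were the highest. Without the level filter its differences on 1422122_at were -0.50 in hGas against WT (SE 0.11, limma adjusted p = 0.154) and -0.23 in Gas-/- against WT (SE 0.11, adjusted p = 0.366).

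Pax5, the transcription factor that commits cells to the B lineage, lay between 1.91 and 1.95 on 1421765_at and between 1.99 and 2.06 on 1454401_at, with no difference over 0.02 between genotypes. Blk, a kinase of the Src family that acts downstream of the antigen receptor, lay between 1.80 and 1.92 on all WT and hGas arrays and stood at 3.75, 2.53 and 1.92 in Gas-/-. A single array, Gas-/- replicate 1, thus held most of the Blk signal, and the difference of 0.82 from WT did not pass without the filter (SE 0.37, adjusted p = 0.303). These flat or dim probe sets give no measure of whether the genes differ in the tissue.

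**Figure D2:**
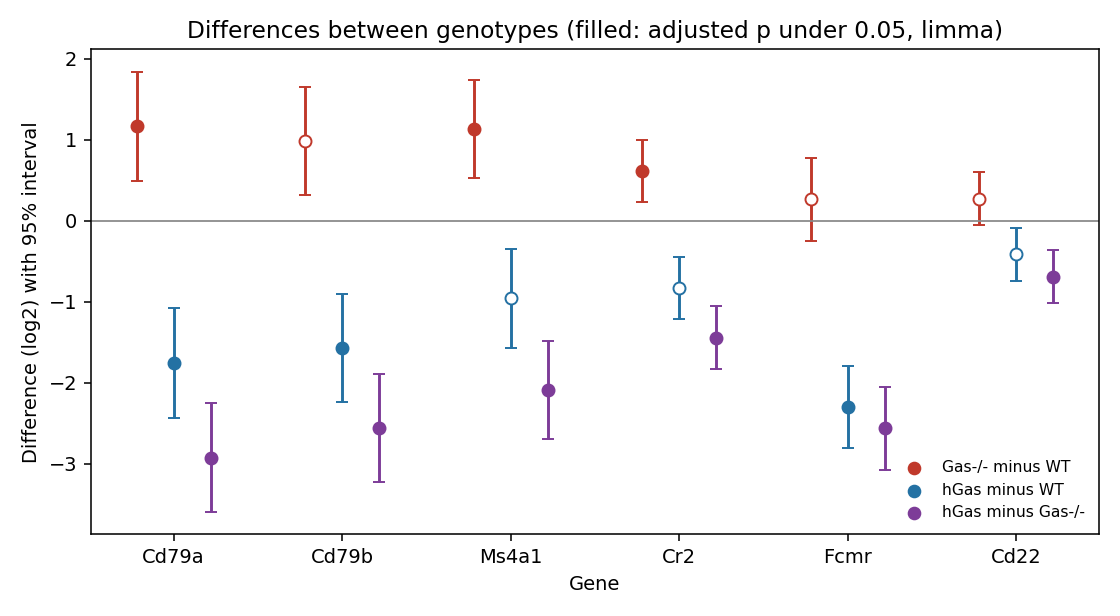
Log2 difference (vertical axis) with its 95% interval from the limma fit for the 6 B cell genes tested (horizontal axis), in each of the 3 comparisons of 3 arrays against 3, with filled points where the adjusted p was under 0.05. All 6 genes are filled for hGas minus Gas-/-, from -2.92 for Cd79a to -0.69 for Cd22, while Fcmr and Cd22 lie near 0 for Gas-/- minus WT.

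Over the list, the median log2 difference of the 6 genes tested was 0.80 in Gas-/- against WT, -1.27 in hGas against WT and -2.33 in hGas against Gas-/-, where the medians over all 11273 genes were 0.01, 0.01 and 0.00. These medians describe the genes above the level filter only. In 4 genes, Cd79a, Cd79b, Ms4a1 and Cr2, the last with the limit given above, every hGas array lay under every WT array and every WT array under every Gas-/- array, an order without overlap found in 1.43% of all genes tested. The same 4 genes lay without overlap higher in Gas-/- than in WT, as did 16.1% of genes. All 6 lay without overlap lower in hGas than in WT, as did 8.36% of genes, and lower in hGas than in Gas-/-, as did 18.5%. Over probe sets, 7 of the 13 were tested. Of these, 4 were called higher in Gas-/- than in WT, 3 lower in hGas than in WT and 7 lower in hGas than in Gas-/-. The 4 and the 7 include both Ms4a1 probe sets and that of Cr2, which entered the fit through Gas-/- and is no support there. The shares called over all 19822 probe sets tested were 5.74%, 0.429% and 7.61%.

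Apart from Fcmr, the gene calls against WT did not hold in every fit that left out 1 array, although each such fit also has fewer samples. In Gas-/- against WT, where 3 genes were called, none was called without WT replicate 2, WT replicate 3 or Gas-/- replicate 1, and 1 without Gas-/- replicate 3. Cd79a lost its call without any 1 of the 3 WT arrays or Gas-/- replicate 1 or 3 (adjusted p up to 0.115), Ms4a1 without WT replicate 2 or 3 or Gas-/- replicate 1 (up to 0.0827), and Cr2 without any array but WT replicate 1 or Gas-/- replicate 2 (up to 0.152). Probe set 1423226_at of Ms4a1 lost it without WT replicate 2 or 3 or Gas-/- replicate 3 (up to 0.0806). The differences themselves stayed between 0.90 and 1.30 for Cd79a and between 0.86 and 1.33 for Ms4a1. Cd79b gained a call without hGas replicate 1 (0.0298) or 3 (0.0491).

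In hGas against WT, Cd79a kept its call only without Gas-/- replicate 1 or hGas replicate 3 (adjusted p up to 0.0854 otherwise), and Cd79b only without hGas replicate 3 (up to 0.109 otherwise). Fcmr was called in each of the 9 limma fits that leave out an array (adjusted p from 0.00448 to 0.0191). The 6 calls between hGas and Gas-/- also held in each of those fits. Among them, the call of Cr2 is no support, since Cr2 entered the fit through Gas-/-.

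Within WT and Gas-/- all 7 B cell probe sets above background shared their high array, and within hGas 6 of the 7 did. The pan-leukocyte and MHC class II lists, described below, had the same high arrays in WT and Gas-/-. On Gas-/- replicate 1 and on WT replicate 1 all 7 probe sets above background stood higher than on either other array of that genotype, by 0.19 to 0.59 and 0.11 to 0.58 over the genotype's mean. On Gas-/- replicate 2 all 7 were the lowest of their genotype, 0.20 to 0.47 below the mean. In hGas no array was lowest for all 7 probe sets: replicate 1 was lowest for 3 and replicate 2 for 4, while replicate 3 was highest for 6. Cd79a spread most there, from 0.63 below the mean on replicate 1 to 0.52 above it on replicate 3, while Fcmr and 1423226_at of Ms4a1 lay under log2 4 on all 3 arrays and varied less. Blk and the dim Cd22 probe set also had their highest value on Gas-/- replicate 1.

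**Figure D3:**
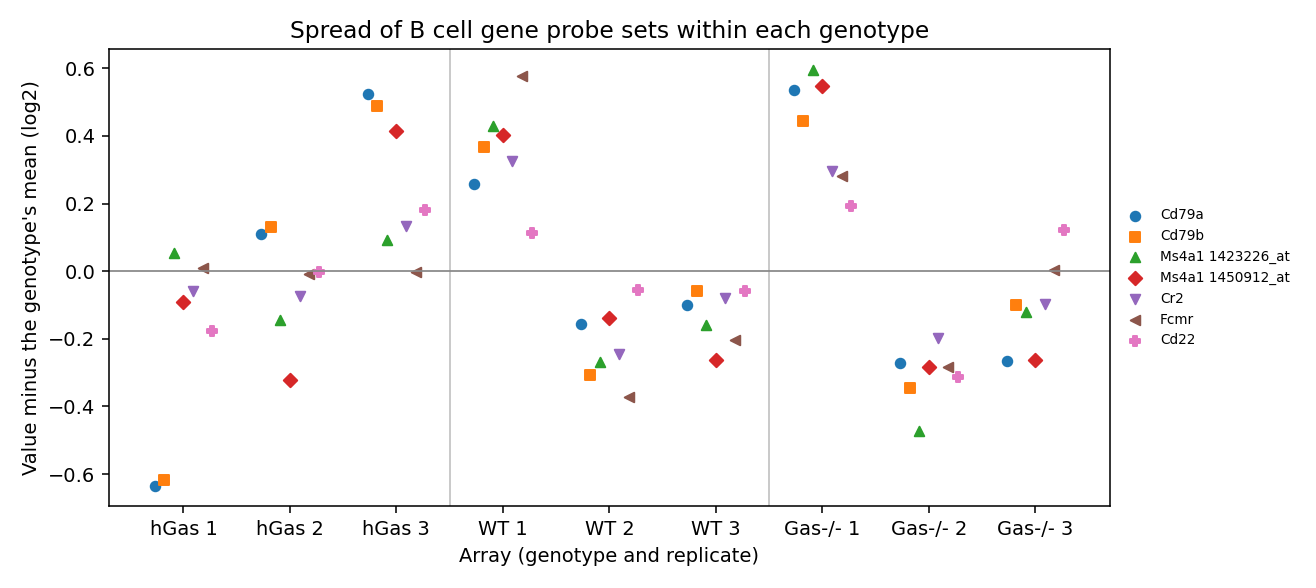
Log2 value minus the mean of its genotype (vertical axis) for the 7 B cell probe sets above background on each array (horizontal axis, 3 replicates in each of 3 genotypes). All 7 points are above 0 on WT replicate 1 and Gas-/- replicate 1 and all are below 0 on WT replicates 2 and 3 and Gas-/- replicate 2.

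Other genes of the B cell were called against Gas-/- but not between hGas and WT. Of 24 genes of antigen receptor signalling 18 were tested: 5 rose in Gas-/- against WT, none was called in hGas against WT, and 10 fell in hGas against Gas-/-, with medians of 0.26, -0.19 and -0.42, and 3 of the 18 had a positive difference in hGas against WT. Cd37, a tetraspanin of mature B cells, rose by 1.17 on the log2 scale in Gas-/- against WT (SE 0.16, limma adjusted p = 0.00147), and Bank1, a scaffold protein of the receptor pathway, by 0.99 (SE 0.18, adjusted p = 0.00661). Their differences in hGas against WT, -0.74 and -0.81, did not pass (adjusted p = 0.0716 and 0.0761). Cd72, another inhibitory receptor, differed by -1.41 from Gas-/- to hGas (adjusted p = 0.00385).

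Of 14 transcription factors used in the B lineage, 13 were tested, and 5 rose in Gas-/- against WT, none was called in hGas against WT, and in hGas against Gas-/- 8 fell and 1 rose. In hGas against WT 5 of the 13 had a positive difference. Ikzf1, a zinc finger factor of lymphocytes, rose by 1.14 in Gas-/- against WT (limma adjusted p = 0.00243) and Spib by 1.02 (adjusted p = 0.00631). Ikzf3, a relative of Ikzf1, lay under log2 4 on all WT (2.19 to 2.98) and hGas arrays (2.44 to 2.73) and at 4.44 to 5.49 in Gas-/-, the genotype through which it entered the fit. Ebf1, which works with Pax5 to set up the B lineage and is also expressed in stromal cells, stood at 4.52 ± 0.02 in WT, 4.92 ± 0.10 in Gas-/- and 4.19 ± 0.21 in hGas (SD, n = 3), and its rise of 0.41 passed (adjusted p = 0.0453).

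Some genes that mark lymphoid follicles were called in the same direction. Of 19 listed, 11 were tested, of which 7 had a positive difference in Gas-/- against WT and Ccl20, Ltbr, Tnfrsf11a and Madcam1 a negative one (-0.56 to -0.03, none called). In the same tests 5 rose in Gas-/- against WT, 3 fell in hGas against WT and 6 fell in hGas against Gas-/-. Cxcl13, the chemokine that draws B cells into follicles, stood at 7.17 ± 0.02 in WT, 8.72 ± 0.11 in Gas-/- and 6.22 ± 0.11 in hGas (SD, n = 3). It rose by 1.56 in Gas-/- (SE 0.08, limma adjusted p = 2.0e-06) and fell by 0.95 in hGas (SE 0.08, adjusted p = 0.00155). Ccr6, a chemokine receptor of B cells and other lymphocytes, rose by 1.05 in Gas-/- and fell by 1.54 in hGas (adjusted p = 0.0292 and 0.0287). Tnfrsf13c, the receptor for the B cell survival factor BAFF, lay under log2 4 on all WT (3.84 to 3.90) and hGas arrays (3.41 to 3.62) and above it in Gas-/- (5.04 ± 0.41, SD, n = 3), through which it entered the fit. Germinal centre genes did not share the order: of 10 listed, 6 were tested, none was called against WT, and Rgs13 and Gcnt3 were higher in hGas than in Gas-/- by 1.04 and 0.86 (adjusted p = 0.0159 and 0.0398). Of 8 genes of the follicle epithelium and M cells, 6 were tested, none was called against WT, and 1 rose and 1 fell in hGas against Gas-/-.

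Markers of other white blood cells moved with the B cell genes, and their part in the result was not tested. Of 12 pan-leukocyte genes 10 were tested, and all 10 rose in Gas-/- against WT and fell in hGas against Gas-/-, while 1 fell in hGas against WT. Ptprc, which encodes Cd45, the surface phosphatase of white blood cells, stood at 8.44 ± 0.21 in WT, 9.32 ± 0.29 in Gas-/- and 8.21 ± 0.07 in hGas (SD, n = 3). It rose by 0.87 in Gas-/- (SE 0.14, limma adjusted p = 0.00386) and differed by -0.23 in hGas (SE 0.14, adjusted p = 0.522). The list score, in which each gene is centred on its own 9-array mean in log2 and the list is then averaged, ran from -0.21 to -0.01 in WT, from 0.49 to 0.89 in Gas-/- and from -0.58 to -0.40 in hGas for pan-leukocyte genes. For the 6 B cell genes it ran from -0.02 to 0.53, from 0.64 to 1.31 and from -1.38 to -0.83. In WT and in Gas-/- both scores were highest on replicate 1, as was the MHC class II score. The myeloid and plasma cell scores were highest there in Gas-/- but not in WT.

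The B cell score minus the pan-leukocyte score of the same array was 0.33 ± 0.19 in WT, 0.30 ± 0.13 in Gas-/- and -0.63 ± 0.33 in hGas (SD, n = 3). Both scores are centred over the same 9 arrays, so these values add up to about 0 and only their differences between genotypes can be read. The hGas arrays (-0.98 to -0.33) did not overlap the others (0.16 to 0.54), whereas WT and Gas-/- did overlap, and no test was run. Taken from the MHC class II score instead, the hGas arrays (-0.60 to -0.06) overlapped those of Gas-/- (-0.12 to 0.22). The WT arrays lay at 0.14 to 0.47 on that measure. The B cell score includes Cr2, which entered the fit through Gas-/-.

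MHC class II genes, which B cells and other antigen presenting cells use, had 8 of 10 tested, of which 7 rose in Gas-/- and 5 fell in hGas against WT. Their scores were -0.16 to 0.05 in WT, 0.76 to 1.09 in Gas-/- and -0.90 to -0.77 in hGas. H2-Oa, counted among the 7 and in the scores, entered the fit through Gas-/- (4.41 to 5.26). It lay under log2 4 in WT (2.36 to 3.16) and hGas (2.19 to 2.30). Myeloid markers had 15 of 16 tested, of which 4 rose in Gas-/- against WT, none was called in hGas against WT and 7 fell in hGas against Gas-/-. Lyz2, a lysozyme gene of macrophages, rose by 0.52 in Gas-/- (limma adjusted p = 0.0128) and differed by -0.16 in hGas (adjusted p = 0.569). T cell markers were largely near background: 3 of 16 were tested, of which 1 rose in Gas-/- against WT and 2 fell in hGas against Gas-/-, and Cd3e, Cd4 and Cd8a had group means between 2.26 and 3.49. The 1 counted as rising, Cd28, entered the fit through Gas-/- (4.17 to 4.96) and lay under log2 4 in WT (2.77 to 3.10) and hGas (2.87 to 3.06).

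Plasma cell genes were not called lower in hGas than in WT. Of 11 listed, 10 were tested, and 6 rose and 1 fell in Gas-/- against WT. Irf4, counted among the 6, entered the fit through Gas-/- (5.26 ± 0.35, SD, n = 3), so its calls against Gas-/- are no support. None of the 10 was called in hGas against WT, where 9 of the 10 had a positive difference. In hGas against Gas-/- 2 fell and 1 rose, with a median of -0.40. Those that fell were Irf4 (log2 -1.82), under log2 4 in WT and hGas, and Pou2af1 (log2 -1.15, limma adjusted p = 0.0399), a coactivator also on the transcription factor list. Xbp1 rose in hGas against Gas-/- (log2 0.23, adjusted p = 0.0269) and was also the gene that fell in Gas-/- against WT (log2 -0.21, adjusted p = 0.0463). Jchain, which joins secreted IgA and IgM into polymers, stood at 11.35 ± 0.65 in WT, 12.99 ± 0.12 in Gas-/- and 12.45 ± 0.31 in hGas (SD, n = 3), with differences from WT of 1.64 (limma adjusted p = 0.00414) and 1.10 (adjusted p = 0.0955). The plasma cell score was lowest on WT replicate 3 (-0.98 against -0.26 and -0.25 on the other WT arrays). Ighm, the heavy chain gene of IgM, ranged from 5.24 to 8.91 among the WT arrays alone and did not pass in any comparison (adjusted p = 0.178, 0.632 and 0.515).

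Epithelial and stromal genes were described by the same counts and scores, and tissue content was not tested. Of 12 colonic epithelium genes 2 rose and 1 fell in Gas-/- against WT, and 1 rose and 1 fell in hGas against WT. In hGas against Gas-/- 1 rose, Car1, and 2 fell, Epcam and Krt18. Epcam was among those that rose in Gas-/- (log2 0.35, limma adjusted p = 5.3e-04). Of 12 smooth muscle and stroma genes 2 rose in Gas-/- and none was called in hGas against WT. In hGas against Gas-/- 2 of them fell, Dcn and Pdgfra, and none rose. The score of the 12 colonic epithelium genes lay between -0.17 and 0.08 on all arrays and that of the 12 stromal genes between -0.09 and 0.12. As a sign of RNA quality, the 3' minus 5' difference of the Gapdh probe sets was -0.16 ± 0.02 in WT, -0.10 ± 0.01 in Gas-/- and -0.10 ± 0.05 in hGas (SD, n = 3). For beta-actin it was 0.83 ± 0.06, 0.90 ± 0.04 and 0.90 ± 0.03, so the WT mean was lowest for both. The Gapdh ranges of WT (-0.18 to -0.14) and Gas-/- (-0.12 to -0.09) did not overlap, while the other ranges overlapped that of WT. The part of RNA quality was not tested either. Distal colon genes scored higher in WT (0.34 to 0.50) than in Gas-/- (-0.19 to 0.01) or hGas (-0.37 to -0.20). Of 7 tested, 3 fell in Gas-/- and 2 in hGas against WT. Those that fell in Gas-/- were Fxyd4, Scnn1b and Scnn1g (log2 -1.64, -0.70 and -1.56). Scnn1a differed there by -0.17, and Hoxb13, Hoxd13 and Hoxa13 by 0.01, 0.03 and 0.32, none of them called. In hGas against Gas-/- 2 of the 7 fell, Hoxa13 (log2 -0.60, limma adjusted p = 0.015) and Hoxb13 (log2 -0.41, adjusted p = 0.0267). None was called higher there, though 2 had a positive difference. The part of these genes in the B cell result was not tested.

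**Figure D4:**
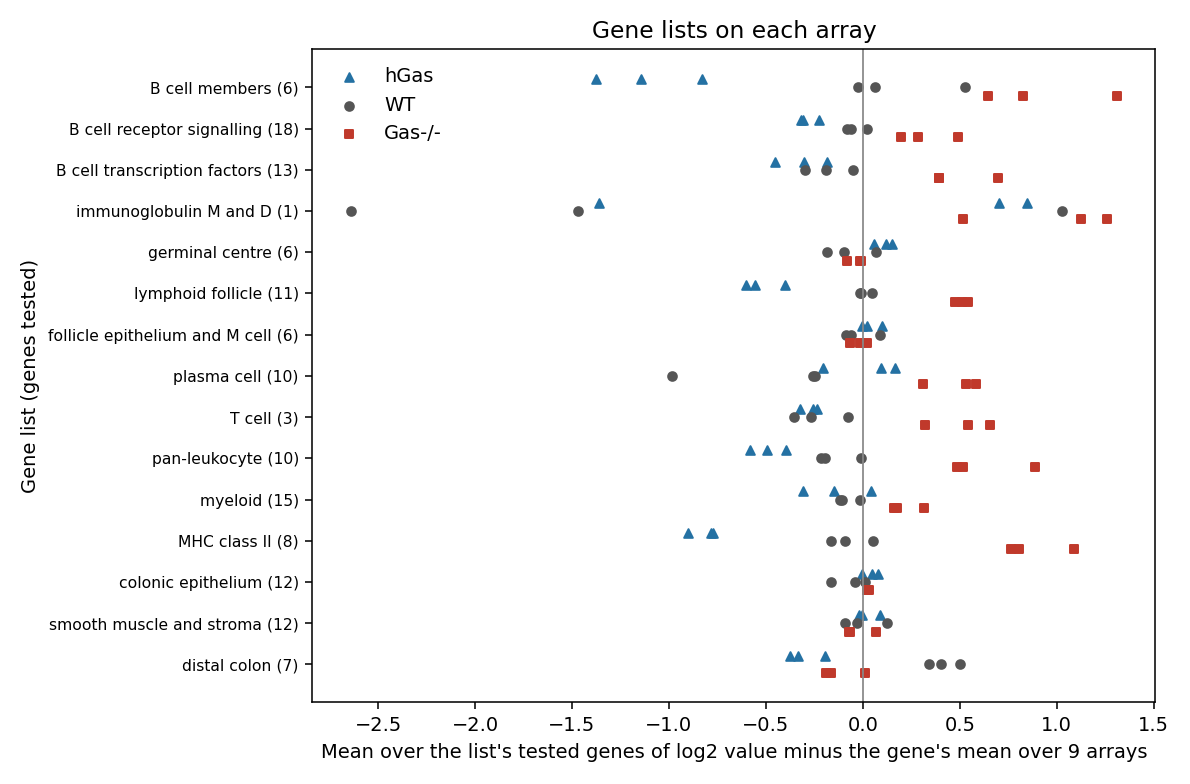
Mean over each gene list (vertical axis, number of genes tested in brackets) of log2 values centred gene by gene over the 9 arrays (horizontal axis), with 1 point per array and 3 arrays per genotype. The 3 genotypes separate, hGas lowest and Gas-/- highest, for the B cell genes, B cell receptor signalling, lymphoid follicle, pan-leukocyte and MHC class II lists. They separate in other orders for the plasma cell list, with WT lowest, and the distal colon list, with WT highest. All arrays lie within 0.2 of 0 for epithelial and stromal genes.

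The genes whose values ran most like the B cell genes over the 9 arrays were found by Pearson's r with the mean profile of the 6 genes, given as a description, since the arrays fall into 3 genotypes that carry most of the likeness. The profile was matched most closely by H2-Ob, an MHC class II chain of B cells that modulates peptide loading (r = 0.995), and Ighv14-2, an antibody heavy chain segment (r = 0.988). Il7, a lymphocyte growth factor (0.975), Coro1a, an actin binding protein of white blood cells (0.971), Clu, clusterin (0.969), and Bank1 (0.965) came next. Rprm (0.964), Fyn (0.963), H2-DMb2 (0.962) and Arhgdib (0.961) completed the 10. Each B cell gene correlated with the mean of the other 5 at r between 0.919 for Fcmr and 0.989 for Cr2.

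H2-Ob stood at 5.12 to 5.79 in WT, 5.73 to 6.87 in Gas-/- and 3.22 to 3.64 in hGas, and fell by 1.95 in hGas against WT (SE 0.27, limma adjusted p = 0.0148). Ighv14-2 stood at 6.22 to 6.67, 6.74 to 7.65 and 4.05 to 4.37, falling by 2.18 (SE 0.22, adjusted p = 0.00256). Il7 moved far less, by 0.28 up in Gas-/- (SE 0.06, adjusted p = 0.0167) and by -0.28 in hGas (SE 0.06, adjusted p = 0.0669). Likeness of pattern therefore covered genes with differences of very unlike size.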

How the data were processed

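Per the labels' protocols, RNA of colonic mucosa was extracted with Trizol, then amplified and labelled in a single cycle for Affymetrix arrays. The deposited log2 values were made with GCRMA, per the submitters' processing notes, version not stated; this corrects background from probe sequence and equalises array distributions, so values near background have a compressed spread. The number of arrays, 3 a group, limits the precision. Probe sets were named from the platform annotation (34945 with 1 gene). A gene took the values of whichever probe set had the greatest 9-array mean, and was tested if 3 arrays reached log2 4. limma 3.58.1 (with R 4.3.3) was fitted to all 9 arrays with genotype as the only term and a mean-variance trend, 2-sided, and checked on simulated data. Probe sets were fitted the same way. Figures and lists used Python 3.11.15, pandas 2.3.3, scipy 1.17.1 and matplotlib 3.10.9.

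The members, lists and rules were chosen with earlier results of these data known. Named were the 9 members, Gast, up to 4 called genes per list by smallest F test p, 12 defining markers and the 10 genes most like the members. The 14 lists held 175 entries, of which 162 were measured. Alternatives covered filters, normalisation, probe set choice, eBayes settings, weights, 6-array fits, threshold, a replicate block and leaving out each array.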

Additional observations from a re-analysis of the deposited data

How the results depend on the processing

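All 21 member differences tested (6 genes and the second Ms4a1 probe set, 3 comparisons each) kept their direction in every alternative run. In hGas against Gas-/-, each of the 6 genes was called in every fit at the 0.05 threshold that tested it. Cr2 entered the fit through Gas-/-, so its calls there are no support. It was not tested with a filter at log2 5 or with probe sets for 1 transcript, which gave 5 calls. Likewise, Fcmr and probe set 1423226_at of Ms4a1 held in hGas against WT. Of the genes called higher in Gas-/- than in WT (3, Cr2 among them), 0 were called with no filter or at a threshold of 0.01. When 1 array was left out, 0 to 3 were called. Of those called lower in hGas than in WT (3), 1 was called with no filter, in a fit to the 6 arrays of the comparison or at a threshold of 0.01, and 1 to 3 when 1 array was left out. Over probe sets, the count higher in Gas-/- than in WT (4, Cr2 among them) was 1 with no filter and 0 to 4 when 1 array was left out. With no filter more genes are adjusted over; the cause of the other shifts was not tested. Same-numbered arrays deviated together, at a correlation over 0.1, in 7 of 9 pairs, and 8 of 9 arrays correlated best with an array of their own number, which hints at shared replicate sets. The rule for pairing, that every pair exceed 0.1, was not met and the labels do not say what the numbers mark, so the reported fit has no block. With the replicate block, 2 genes were called higher in Gas-/- than in WT, Cd79a being lost (adjusted p = 0.0502), 4 lower in hGas than in WT, Cr2 being gained (log2 -0.83, adjusted p = 0.0293), and 6 lower in hGas than in Gas-/-; over all genes the block called 155 higher and 128 lower in hGas than in WT against 72 and 59. Ms4a1, with its probe sets averaged, was called in hGas against WT at log2 -1.89 (adjusted p = 0.0213). Of the 10 genes most like the members, 8 were shared with a profile of all 9 members and 5 with Spearman's rho.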
